A study of Mus musculus with 12 samples.

Results

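Forkhead, SOX, KLF and GATA proteins are 4 families of DNA-binding transcription factors, and their genes were taken from the deposited expression table by symbol. Every symbol made of Fox and a letter, Sox, Klf or Gata followed by a number was kept, except Foxf1, Klf9 and Klf15, which left 32 genes of the 10253 in the table. These were 14 forkhead, 6 SOX, 9 KLF and 3 GATA genes. All 32 are protein-coding in the GENCODE M21 annotation of GRCm38.

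The study measured RNA-seq in non-endothelial stromal cells (SCs) sorted by flow cytometry as CD45-, CD24-, CD31- and podoplanin-positive (Pdpn+, also called gp38). They came from mesenteric lymph nodes (mLN), which drain the gut, or from skin-draining peripheral lymph nodes (pLN). The mice were adult BALB/c kept under specific pathogen-free (SPF) conditions or germ-free (GF), and the design thus asks how location and microbiota relate to gene expression. The 12 libraries form 4 groups of 3, namely mLN SPF, mLN GF, pLN SPF and pLN GF. The methods list a CD90.1 line on BALB/c among the SPF mice, without tying it to these libraries. They describe the GF mice as derived by caesarean section in another animal facility, so microbiota and colony cannot be told apart. The paper gives a slightly younger age range for the GF than for the SPF mice, although its methods state that ages were matched. Age may thus also differ between the housings. The labels do not say how many animals went into a library or whether libraries are separate animals, so the p-values measure the spread between these libraries. The sort pools several SC subsets, and fewer cells of a subset and less RNA per cell cannot be told apart in such bulk libraries.

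Forkhead factors bind DNA through a winged-helix domain. Among them, the FoxO proteins are phosphorylated by AKT and held in the cytoplasm when growth factors are present, and enter the nucleus when they are not. SOX factors bind and bend DNA with an HMG box, KLF factors bind GC-rich and CACCC sequences with zinc fingers, as do the related Sp factors, and GATA factors recognise the bases after which they are named. In mesenchyme several of them mark lineages, such as Sox9 in cartilage, while KLF2, KLF4, KLF6 and KLF10 are rapidly induced in many cell types.

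Levels are given as RPKM, reads scaled to the length of a gene's exons and to the mapped reads of the library, which allows genes to be compared per length. A difference is a limma log2 change on the log2(RPKM + 1) scale with its standard error (SE), and adjusted p-values are Benjamini-Hochberg values over the 9758 genes tested. A gene was called when its adjusted p was under 0.05 and its change reached 2-fold. Low genes change more than this scale shows. Of the 32 factors, 26 reached 1 RPKM in at least 3 libraries and were tested. The remaining 6, Foxc1, Foxc2, Sox7, Sox17, Gata2 and Gata4, did not. Sox18 reached 1 RPKM only in the 6 pLN libraries, and Foxp2 in those and 1 mLN library, so both entered the tests through the location where they were high. Their location values are therefore given as a description, without p-values. Counts of each location comparison are given with and without them, except where the processing is varied.

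Whole reads recovered from the RPKM steps summed to between 4.62 and 14.1 M per library, the shallowest being pLN GF replicate 3. The first principal component accounted for 74.9% of the variance and separated mLN from pLN, and the second, with 9.32%, separated SPF from GF. All 8 general SC markers, among them Pdgfra, Pdgfrb and Col1a1, were present, with Pdpn between 53.9 and 80.5 RPKM. Among 12 blood and 8 lymphatic endothelial markers, Pecam1, which encodes the CD31 of the sort, did not exceed 1.58 RPKM, and Cdh5, Tie1, Emcn, Prox1 and Lyve1 did not exceed 0.349 RPKM. Others were higher, up to 84.8 RPKM for Tek, 47.8 for Eng, 23.9 for Ets1, 10.3 for Ackr4 and 2.07 for Cldn5. Of 15 haematopoietic markers the table held only Lyz2, at no more than 5.21 RPKM, and of 6 epithelial markers none. The table held 2 of 11 mesothelial markers, 2 of 10 Schwann cell markers, 3 of 8 adipocyte markers and 3 of 6 erythroid markers. The highest of these were the adipocyte gene Fabp4, at up to 76.2 RPKM, and Pmp22 of the Schwann list, at up to 443 RPKM, which fibroblasts also express.

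Summed marker RNA of several SC subsets differed with location. The 11 perivascular markers measured, of 13 listed, summed to 160.0 to 192 RPKM in mLN SPF, against 843 to 937 RPKM in pLN SPF. In GF mice they summed to 143 to 256 RPKM in mLN, against 777 to 1032 RPKM in pLN. The markers of fibroblastic reticular cells (FRC), 11 of 12 measured, summed to 472 to 735 RPKM in mLN SPF, against 5381 to 7219 RPKM in pLN SPF. In GF mice the FRC sums were 583 to 1045 RPKM in mLN, against 7451 to 9564 RPKM in pLN. The 11 markers of CD34+ SCs ran the other way, with 5587 to 6069 RPKM in mLN SPF, against 1822 to 2904 RPKM in pLN SPF, and 4731 to 5450 RPKM in mLN GF, against 1064 to 2215 RPKM in pLN GF. None of these ranges overlapped between locations. Their part in any location difference given here was not tested.

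**Figure D1:**
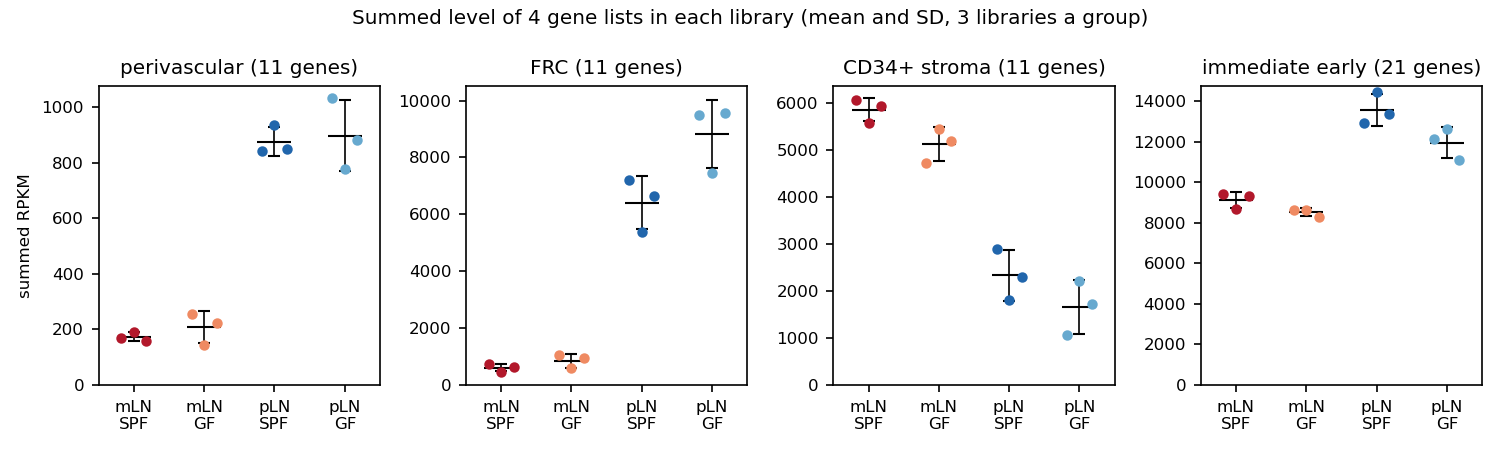
Summed RPKM (vertical axis) of perivascular, FRC, CD34+ SC and immediate early genes in each of the 12 libraries (points), with the mean and SD of the 3 libraries of each group (black). Perivascular, FRC and immediate early sums are lower in mLN than in pLN in both housings, and the CD34+ SC sum is higher in mLN, at 4731 RPKM or more against 2904 RPKM or less.

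The first comparison asked which factors differ between mLN and pLN SCs in SPF mice. One of the 26 tested factors was called higher in mLN (background 3.98% of all tested genes) and 4 were called lower (background 6.41%). Sox13 was higher, and Foxs1, Sox4, Sox18 and Foxp2 were lower, which leaves 2 lower without Sox18 and Foxp2. At the adjusted p alone, 7 were higher in mLN (background 19.7%) and 8 were lower (background 13.8%), or 6 without Sox18 and Foxp2. Medians sat near 0, with a log2 change of 0.06 over the 26 factors, beside 0.09 over all tested genes. In GF mice the same comparison called 1 factor higher in mLN, Klf2 (background 4.57%), and 3 lower, Foxs1, Sox4 and Foxp2 (background 6.88%), or 2 without Foxp2. At the adjusted p alone, 6 were higher (background 17.1%) and 8 lower (background 18.4%), or 6 without Sox18 and Foxp2, with a median of -0.01 over the factors and 0.00 over all tested genes. The SPF and GF comparisons share no libraries, so their changes stand side by side. Both used the spread estimated from all 12 libraries, so their SEs and p-values are not separate.

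**Figure D2:**
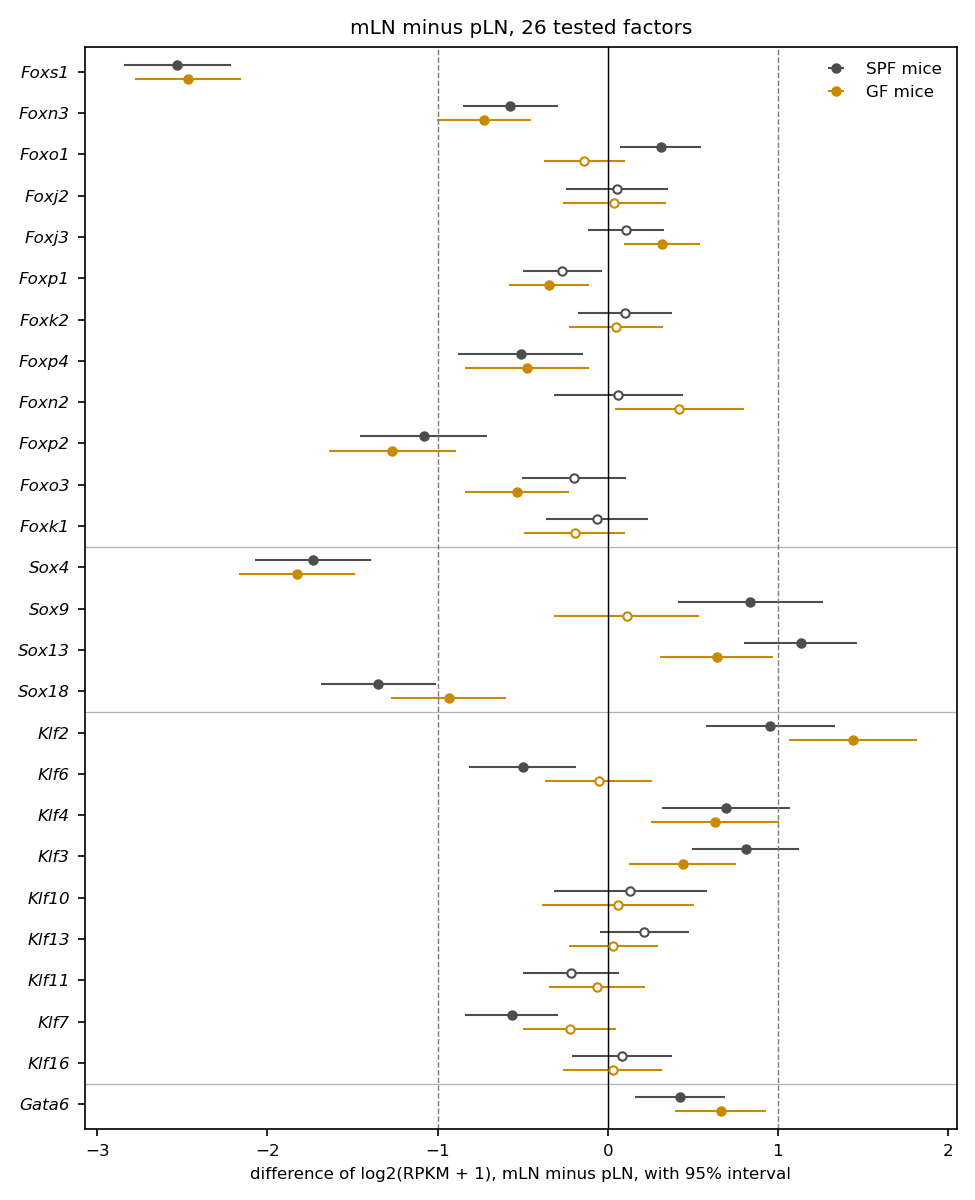
Log2 change of mLN minus pLN (horizontal axis, log2(RPKM + 1) scale) for the 26 tested factors, in SPF mice (grey) and GF mice (amber), with 95% intervals. Filled points passed an adjusted p of 0.05, dashed lines mark 2-fold, and Foxs1 and Sox4 lie furthest to the left, at -2.53 and -1.73 in SPF mice.

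On the log2(RPKM + 1) scale Foxs1 had the largest location difference of the tested factors. In SPF mice the ratio of mean RPKM in mLN to pLN was also lowest for Foxs1, at 0.149, with Sox18, a low gene, at 0.152. Their order depends on the processing, since the most negative SPF change over the alternative settings was -2.79 for Foxs1 and -2.87 for Sox18. Foxs1, a forkhead gene known in mouse from pericytes and neural crest derivatives, lies on chromosome 2 from 152931898 to 152933208. It stood at 5.56, 5.03 and 4.83 RPKM in mLN SPF, against 35.0, 31.5 and 36.8 RPKM in pLN SPF. Every mLN library lay below every pLN library, with a log2 change of -2.53 ± 0.15 (SE, n = 3 each, limma adjusted p = 2.75e-09). Foxs1 in GF mice stood at 5.23, 4.31 and 6.71 RPKM in mLN, against 41.1, 31.0 and 30.9 RPKM in pLN. That is a log2 change of -2.46 ± 0.15 (limma adjusted p = 4.44e-09), again with no overlap. Housing moved it by -0.05 ± 0.15 in mLN and 0.01 ± 0.15 in pLN, neither past the threshold. The perivascular genes Rgs5 and Notch3 averaged 1.94 and 2.01 RPKM in mLN SPF, against 49.8 and 23.1 RPKM in pLN SPF, which is the same direction as Foxs1, and their part in it was not tested.

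Foxp2, a repressor best known from speech and lung development, was a low gene with the same direction. In SPF mice it stood at 0.509, 0.761 and 0.550 RPKM in mLN, against 1.60, 3.61 and 2.25 RPKM in pLN, a log2 change of -1.08 ± 0.18. Foxp2 in GF mice stood at 0.999, 1.04 and 0.651 RPKM in mLN, against 3.76, 4.01 and 2.92 RPKM in pLN, a log2 change of -1.27 ± 0.18. The groups did not overlap in either housing. The highest SPF value was that of pLN SPF replicate 2, and without this library the SPF change was -0.86, under 2-fold.

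The other forkhead genes of the location comparison changed by less than 2-fold. Foxn3, a repressor tied to cell-cycle checkpoints, was measured at 14.5, 13.3 and 15.1 RPKM in mLN SPF, against 18.5, 24.6 and 22.6 RPKM in pLN SPF. Foxn3 in GF mice was at 17.5, 15.0 and 15.0 RPKM in mLN, against 30.2, 23.6 and 26.8 RPKM in pLN. It was lower in mLN in both, by -0.57 ± 0.13 in SPF (limma adjusted p = 0.00264) and -0.73 ± 0.13 in GF mice (limma adjusted p = 0.000336), with no overlap. Foxp4, a close relative of Foxp1 and Foxp2, averaged 2.52 ± 0.588 RPKM in mLN SPF and 3.98 ± 0.466 RPKM in pLN SPF (SD, n = 3 each), a log2 change of -0.51 ± 0.17 at a limma adjusted p of 0.0314. In GF mice its change was -0.47 ± 0.17 (limma adjusted p = 0.043), but the libraries overlapped. These Foxp4 differences depended on the settings. Leaving out mLN SPF replicate 2 or 3, or pLN SPF replicate 1 or 3, raised the SPF adjusted p to as much as 0.14. In GF mice leaving out mLN SPF replicate 3, mLN GF replicate 2 or 3, pLN SPF replicate 3, or pLN GF replicate 1 or 2 raised it to as much as 0.202. The GF difference also did not pass with a pseudocount of 0.1, with no filter on low values, or with only the 6 GF libraries.

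Foxp1, a further FoxP gene, was lower in mLN of GF mice, with 5.17 ± 0.430 RPKM in mLN GF and 6.84 ± 0.428 RPKM in pLN GF (SD, n = 3 each), a log2 change of -0.35 ± 0.11 at a limma adjusted p of 0.022. In SPF mice its change was -0.27 ± 0.11 (limma adjusted p = 0.0746). Foxj3 was higher in mLN of GF mice, with 7.44 ± 0.502 RPKM in mLN GF and 5.75 ± 0.317 RPKM in pLN GF (SD, n = 3 each), by 0.32 ± 0.10 (limma adjusted p = 0.0257). Without mLN GF replicate 1 or 3 or pLN GF replicate 1, neither passed, nor did Foxj3 without pLN GF replicate 2 or Foxp1 without pLN GF replicate 3, with an adjusted p of at most 0.112 for Foxj3 and 0.089 for Foxp1. Exons of Foxp1 and Foxj2 overlap other annotated genes, on the same strand for Foxp1 and on both strands for Foxj2, and the chemistry keeps no strand, so their reads are not fully separable.

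Foxn2, which the study names, had 2.75, 4.01 and 2.66 RPKM in mLN SPF, against 2.21, 3.92 and 2.83 RPKM in pLN SPF. Foxn2 in GF mice had 4.86, 2.82 and 3.62 RPKM in mLN, against 2.50, 2.36 and 2.67 RPKM in pLN. Its location change was 0.06 ± 0.18 in SPF and 0.42 ± 0.18 in GF mice (limma adjusted p = 0.828 and 0.0812). Foxj2, Foxk1 and Foxk2 passed in neither location comparison, with Foxj2 between 7.01 and 11.3 RPKM, Foxk1 between 0.836 and 1.70 RPKM and Foxk2 between 3.13 and 6.25 RPKM over the 12 libraries. Foxc1 and Foxc2, which act in vessel and mesenchyme development, did not exceed 0.402 and 0.656 RPKM and rest on 2 to 28 reads per library.

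Foxo1 and Foxo3 were lower in pLN SPF than in pLN GF at the adjusted p, and Foxo3 also in mLN, while neither was called at 2-fold. Foxo1, a FoxO factor of metabolism and cell quiescence on chromosome 3 from 52268336 to 52353221, stood at 13.1, 11.1 and 12.5 RPKM in pLN SPF, against 22.6, 21.8 and 23.6 RPKM in pLN GF. All SPF values lay below all GF values, and the log2 change was -0.84 ± 0.11 (limma adjusted p = 0.00032). In mLN it stood at 15.7, 14.6 and 15.9 RPKM in SPF, against 22.7, 18.3 and 20.7 RPKM in GF mice. There too the groups did not overlap, but the change of -0.39 ± 0.11 missed the threshold (limma adjusted p = 0.0609). Between locations Foxo1 was higher in mLN than in pLN of SPF mice by 0.31 ± 0.11 (limma adjusted p = 0.0423), which was lost in 10 of 22 alternatives. These include leaving out any mLN SPF library, mLN GF replicate 3, pLN SPF replicate 2 or 3, or pLN GF replicate 1, and also median-of-ratios rescaling, with adjusted p up to 0.146. In GF mice the Foxo1 location change was -0.14 ± 0.11 (limma adjusted p = 0.373). An antisense gene, Gm20402, overlaps its exons.

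Foxo3, the stress-response relative of Foxo1, was far less abundant and was lower in SPF in both locations. It stood at 0.881, 1.29 and 1.33 RPKM in pLN SPF, against 3.32, 2.89 and 3.55 RPKM in pLN GF, a log2 change of -0.98 ± 0.14 (limma adjusted p = 0.000775), just under 2-fold. In mLN it stood at 1.05, 0.556 and 1.10 RPKM in SPF, against 2.39, 1.63 and 1.83 RPKM in GF mice, a change of -0.64 ± 0.14 (limma adjusted p = 0.0187). The groups did not overlap in either location. Without pLN SPF replicate 2, pLN SPF replicate 3 or pLN GF replicate 2 the pLN change passed 2-fold, at -1.02, -1.03 and -1.04, and a pseudocount of 0.1 gave -1.42. The mLN change no longer passed without mLN SPF replicate 2 (limma adjusted p = 0.0858), mLN GF replicate 1 (0.0912) or mLN GF replicate 3 (0.0616). Foxo3 was also lower in mLN than in pLN of GF mice, by -0.53 ± 0.14 (limma adjusted p = 0.00837), while in SPF mice the difference was -0.20 ± 0.14 (0.325).

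The promoters of both FoxO genes are given here because both genes were lower in pLN SPF than in pLN GF at the adjusted p. Each window is RefSeq sequence of GRCm38.p6 from 250 bases before to 50 bases after the start of transcription, and capitals mark the GC box GGGCGG and the CACCC box CCACCC on either strand. These are the letters that KLF and Sp proteins bind, and overlapping matches were joined. Foxo1 is at chr3:52268087-52268386 on the plus strand and Foxo3 at chr10:42276646-42276945 on the minus strand.
Foxo1: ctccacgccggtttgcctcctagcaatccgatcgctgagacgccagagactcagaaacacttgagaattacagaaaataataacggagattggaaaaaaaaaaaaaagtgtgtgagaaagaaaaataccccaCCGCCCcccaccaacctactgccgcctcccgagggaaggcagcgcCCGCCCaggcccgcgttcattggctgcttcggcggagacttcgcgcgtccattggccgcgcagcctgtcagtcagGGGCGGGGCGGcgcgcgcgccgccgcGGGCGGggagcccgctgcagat
Foxo3: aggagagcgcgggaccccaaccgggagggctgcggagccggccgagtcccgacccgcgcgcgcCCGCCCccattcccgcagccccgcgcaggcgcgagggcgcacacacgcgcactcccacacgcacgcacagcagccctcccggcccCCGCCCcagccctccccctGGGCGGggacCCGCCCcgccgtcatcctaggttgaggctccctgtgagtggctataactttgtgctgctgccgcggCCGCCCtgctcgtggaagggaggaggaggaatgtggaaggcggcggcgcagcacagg

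Each of the 2 windows holds 5 GC boxes and no CACCC box. A GC box was present in 35.7% of the 32851 windows of all genes and a CACCC box in 31.5%. The forkhead motif TGTTTAC, on either strand, was in neither window and in 3.65% of all windows. A RefSeq window was found for 19 of the 32 factors, 22 windows in all, of which 18 held a GC box, 9 a CACCC box and 0 the forkhead motif.

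Target genes of FoxO were read from a fixed list. Of 15 tested FoxO target genes, 0 were called higher in SPF (0.236% of all genes in mLN and 0.615% in pLN). In each location 1 was called lower in SPF (0.482% of all genes in mLN and 0.42% in pLN). This was Bcl6, a transcriptional repressor, at 5.44 ± 1.69 RPKM in mLN SPF and 14.1 ± 2.66 RPKM in mLN GF (log2 change -1.25 ± 0.20, limma adjusted p = 0.00176). In pLN, Bcl6 was at 5.22 ± 1.30 RPKM in SPF and 12.7 ± 1.71 RPKM in GF mice (log2 change -1.16 ± 0.20, limma adjusted p = 0.00259). At the adjusted p alone, 3 targets were higher (2.48% of all genes) and 1 lower (2.06%) in mLN SPF, and 4 were higher (4.02%) and 2 lower (6.74%) in pLN SPF. Pik3ip1, an inhibitor of PI3-kinase, was among those higher in SPF, by 0.78 ± 0.11 in mLN and 0.87 ± 0.11 in pLN (limma adjusted p = 0.000784 and 0.000226). In the location comparison, 1 target was called lower in mLN SPF (6.41% of all genes), Cited2, at -1.04 ± 0.17 (limma adjusted p = 0.000156). Of 13 cell-cycle genes driven by Foxm1, a forkhead factor absent from the deposited table, 2 were tested and neither was called in any comparison.

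Of the SOX genes that reached 1 RPKM in both locations, Sox4, Sox9 and Sox13, all 3 passed the adjusted p between locations in SPF mice, as did 33.5% of all genes, and 2 passed in GF mice, as did 35.4% of all genes. Sox4, a SoxC factor of progenitor cells, lies on chromosome 13 from 28948919 to 28953713. It stood at 8.57, 5.58 and 7.43 RPKM in mLN SPF, against 24.4, 25.8 and 27.7 RPKM in pLN SPF. All mLN libraries lay below all pLN libraries, and the log2 change was -1.73 ± 0.16 (limma adjusted p = 3.98e-07). In GF mice Sox4 stood at 5.72, 5.57 and 4.85 RPKM in mLN, against 27.8, 19.8 and 18.2 RPKM in pLN, a change of -1.82 ± 0.16 (limma adjusted p = 2.24e-07). Housing moved it by 0.35 ± 0.16 in mLN and 0.26 ± 0.16 in pLN, and neither passed (limma adjusted p = 0.296 and 0.339). A non-coding gene on the opposite strand, Gm26735, overlaps its exons.

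The Sox4 promoter is given as that of the SOX gene with the largest location change on the log2(RPKM + 1) scale. By the ratio of mean RPKM in mLN to pLN, Sox18 changed more in SPF mice, at 0.152 against 0.277 for Sox4. In GF mice it changed less, at 0.29 against 0.245. The Sox4 window is at chr13:28953650-28953949 on the minus strand, with the same extent and the same capitals as for the FoxO genes.
Sox4: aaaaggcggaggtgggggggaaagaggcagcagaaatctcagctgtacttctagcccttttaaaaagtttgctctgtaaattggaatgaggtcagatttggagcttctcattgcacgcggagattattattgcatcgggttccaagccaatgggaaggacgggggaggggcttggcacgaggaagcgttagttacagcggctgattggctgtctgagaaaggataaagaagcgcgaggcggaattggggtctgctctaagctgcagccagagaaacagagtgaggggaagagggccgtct

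It holds neither a GC box nor a CACCC box, and it also lacks the SOX motif AACAAT on either strand, which was in 10.7% of all windows. One of the 22 windows of the factors held that motif, a window of Foxp1.

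Sox18 and its SoxF relatives Sox7 and Sox17 are best known from endothelium, where Sox18 switches on Prox1 in lymphatic precursors. Sox18 was higher in pLN, at 0.312, 0.127 and 0.678 RPKM in mLN SPF, against 2.62, 2.49 and 2.24 RPKM in pLN SPF, a log2 change of -1.35 ± 0.16. Sox18 in GF mice stood at 0.747, 0.282 and 0.720 RPKM in mLN, against 1.96, 1.65 and 2.41 RPKM in pLN. That change was -0.93 ± 0.16, just under 2-fold. It passed 2-fold without mLN GF replicate 1 or 3 or pLN GF replicate 2, at -1.01, -1.0003 and -1.02. The scale also mattered here, since a pseudocount of 0.1 gave -1.70 and voom on recovered reads gave -1.93. Depth was low, with 2 to 56 reads of Sox18 per library.

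Endothelial markers moved in both directions between locations. The sum over 12 blood endothelial genes was 130 to 142 RPKM in mLN SPF, against 76.5 to 82.4 RPKM in pLN SPF. In GF mice it was 104 to 123 RPKM in mLN, against 73.8 to 78.0 RPKM in pLN. That sum was made up mostly of Tek, Eng and Ets1, and the defining genes Cdh5 and Tie1 stayed at or below 0.306 and 0.245 RPKM. The 8 lymphatic endothelial genes summed to 6.59 to 10.9 RPKM in mLN SPF, against 2.41 to 3.29 RPKM in pLN SPF, most of it Ackr4, and in GF mice to 8.01 to 11.1 RPKM in mLN, against 2.77 to 3.15 RPKM in pLN. Ets1 was lower in mLN, as Sox18 was, by -1.07 ± 0.21 in SPF and -1.59 ± 0.21 in GF mice (limma adjusted p = 0.000696 and 1.38e-05). Clca3a1 reached 1 RPKM only in pLN libraries, so it entered the tests through them and is described without p-values. It averaged 0.174 ± 0.036 RPKM in mLN SPF and 0.928 ± 0.204 RPKM in pLN SPF (SD, n = 3 each). In GF mice it averaged 0.47 ± 0.135 RPKM in mLN and 1.61 ± 0.144 RPKM in pLN. Prox1 did not exceed 0.204 RPKM. Flt4 averaged 0.249 RPKM in mLN SPF and 0.812 RPKM in pLN SPF. The part of endothelial RNA in the Sox18 values was not tested. Sox7 reached 1 RPKM in only 2 libraries, both from pLN, and averaged 0.395 ± 0.182 RPKM in mLN SPF and 0.884 ± 0.126 RPKM in pLN SPF, and 0.304 ± 0.127 RPKM in mLN GF and 1.18 ± 0.465 RPKM in pLN GF (SD, n = 3 each). It was not tested. Sox17 did not exceed 0.162 RPKM, from 0 to 6 reads per library.

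Sox13 was higher in mLN. This SoxD factor, which limits Wnt signalling and is known from gamma-delta T cells, had 7.205, 5.71 and 5.79 RPKM in mLN SPF, against 2.43, 2.01 and 2.42 RPKM in pLN SPF. The log2 change was 1.14 ± 0.16 (limma adjusted p = 2.82e-05). Sox13 in GF mice had 6.36, 6.57 and 5.42 RPKM in mLN, against 4.80, 3.54 and 2.58 RPKM in pLN, a change of 0.64 ± 0.16 (limma adjusted p = 0.0041). The groups did not overlap in either housing. In pLN, Sox13 changed by -0.47 ± 0.16 between SPF and GF mice (limma adjusted p = 0.0657), and in mLN by 0.02 ± 0.16 (0.96).

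Sox9 was the only factor called for housing. Sox9 drives cartilage formation and is also active in fibroblasts that deposit matrix, and it lies on chromosome 11 from 112782224 to 112787760. It stood at 14.7, 15.8 and 15.2 RPKM in mLN SPF, against 4.29, 7.99 and 4.36 RPKM in mLN GF. The lowest SPF library was well above the highest GF library, and the log2 change was 1.36 ± 0.20 (limma adjusted p = 0.000973). It was past 2-fold and the adjusted p in all 21 alternatives. In pLN it stood at 7.25, 9.93 and 7.29 RPKM in SPF, against 3.81, 6.57 and 4.56 RPKM in GF mice, a change of 0.63 ± 0.20 that missed the threshold (limma adjusted p = 0.0578). Sox9 was higher in mLN than in pLN of SPF mice, by 0.84 ± 0.20 (limma adjusted p = 0.00391), and its change in GF mice was 0.11 ± 0.20 (0.714). The difference between these changes, the interaction of location and housing, was 0.73 ± 0.28 and did not pass (limma adjusted p = 0.437).

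Of 12 cartilage genes known as Sox9 targets, the table held 1, whose level did not exceed 1.09 RPKM, and 0 were tested. Of 7 tested HMG-box factors outside the SOX family, 0 were called in any comparison. At the adjusted p alone, Tcf7l2, which carries Wnt signals to DNA, was lower in mLN of SPF mice, at -0.73 ± 0.15 (limma adjusted p = 0.00106). In GF mice Tcf7l2 was lower by -0.98 ± 0.15 and Bbx by -0.36 ± 0.12 (limma adjusted p = 6.97e-05 and 0.034). Tcf7, which also carries Wnt signals, reached 1 RPKM only in pLN libraries, so it entered the tests through them and is described without p-values. It averaged 0.402 ± 0.276 RPKM in mLN SPF and 1.67 ± 0.338 RPKM in pLN SPF (SD, n = 3 each). In GF mice it averaged 0.618 ± 0.134 RPKM in mLN and 1.47 ± 0.149 RPKM in pLN.

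**Figure D3:**
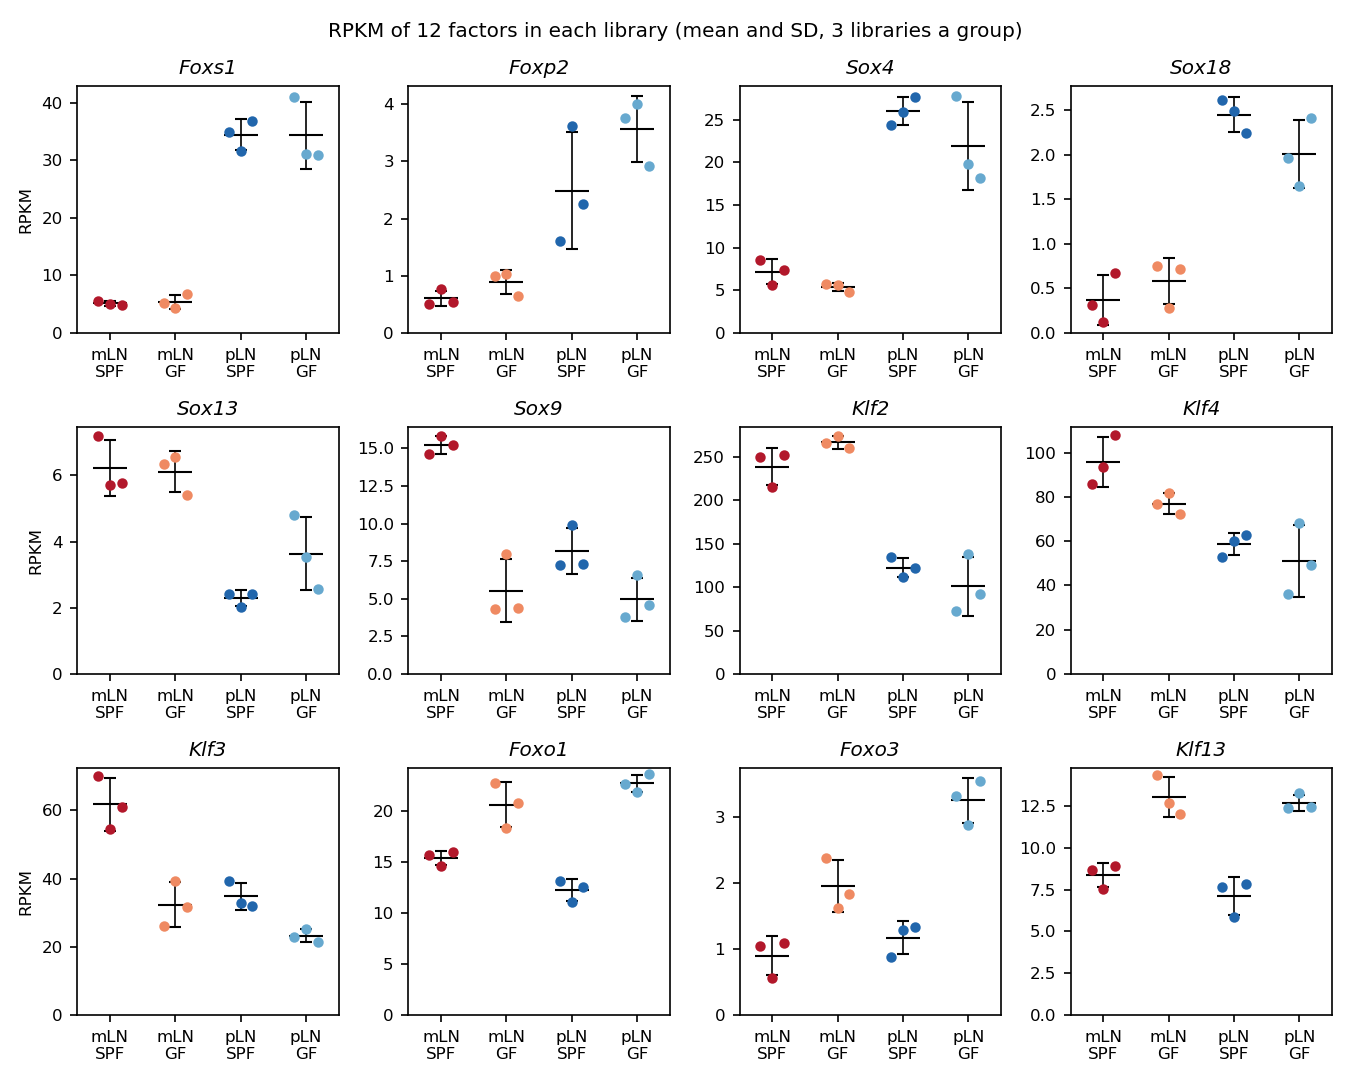
RPKM (vertical axes, from 0) of 12 factors in each of the 12 libraries (points), with the mean and SD of the 3 libraries of each group (black). Foxs1, Foxp2, Sox4 and Sox18 are lower in every mLN library than in any pLN library, Sox9 is highest in the 3 mLN SPF libraries at 14.7 RPKM or more, and Foxo1, Foxo3 and Klf13 are lower in SPF than in GF libraries of the same location.

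By the mean over all 12 libraries, the 5 most abundant of the 32 factors were KLF genes, although Foxs1, at 34.3 ± 5.85 RPKM in pLN GF (SD, n = 3), exceeded Klf3 and Klf10 there. Klf2, Klf6 and Klf4 averaged 182, 160.1 and 70.6 RPKM over the 12 libraries, above 97.8%, 97.4% and 93.4% of the genes in the table. Klf2, which keeps T cells quiescent and answers to flow in endothelium, lies on chromosome 8 from 72319033 to 72321656. It stood at 249.9, 215 and 252 RPKM in mLN SPF, against 134, 112 and 122 RPKM in pLN SPF. Klf2 in GF mice stood at 265, 274 and 260.3 RPKM in mLN, against 72.2, 139 and 92.3 RPKM in pLN. The groups did not overlap, and the log2 change was 0.96 ± 0.18 in SPF (limma adjusted p = 0.000505) and 1.44 ± 0.18 in GF mice (limma adjusted p = 8.14e-06). The SPF change was just under 2-fold and passed it without mLN SPF replicate 2 (1.03) or pLN SPF replicate 1 (1.02). Housing changed Klf2 by -0.16 ± 0.18 in mLN and 0.32 ± 0.18 in pLN, neither past the threshold.

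Klf4, a factor of pluripotency and epithelial barrier that shares many targets with Klf2, was also higher in mLN. It stood at 85.7, 93.5 and 108 RPKM in mLN SPF, against 53.0, 60.2 and 62.9 RPKM in pLN SPF, a log2 change of 0.69 ± 0.18 (limma adjusted p = 0.00599). Klf4 in GF mice stood at 76.6, 82.0 and 72.4 RPKM in mLN, against 36.0, 68.0 and 49.1 RPKM in pLN, a change of 0.63 ± 0.18 (limma adjusted p = 0.0107). Neither pair of groups overlapped. The GF difference rests on pLN GF replicate 1, the lowest of all libraries, and without it the adjusted p was 0.0598. That library was also the lowest for Klf2 and for the CD34+ SC sum, at 1064 RPKM, and the highest for the perivascular sum, at 1032 RPKM.

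Klf3 was higher in mLN and higher in SPF. Klf3 is a repressor that recruits CtBP. It stood at 70.0, 54.5 and 60.9 RPKM in mLN SPF, against 26.1, 39.2 and 31.5 RPKM in mLN GF, a log2 change of 0.93 ± 0.15 (limma adjusted p = 0.0017). In pLN it stood at 39.3, 33.0 and 32.0 RPKM in SPF, against 23.0, 25.3 and 21.5 RPKM in GF mice, a change of 0.56 ± 0.15 (limma adjusted p = 0.0275). Every SPF library lay above every GF library of its location. Without mLN SPF replicate 2 or mLN GF replicate 2 the mLN change passed 2-fold, at 1.01 and 1.07. The pLN change did not pass without pLN SPF replicate 1 or 3 or pLN GF replicate 1 or 3, with adjusted p up to 0.117. Between locations Klf3 was higher in mLN by 0.81 ± 0.15 in SPF (limma adjusted p = 0.000444) and 0.44 ± 0.15 in GF mice (limma adjusted p = 0.0301). The GF location difference no longer passed with voom and without mLN GF replicate 2 or 3 or pLN GF replicate 1 or 3, with adjusted p up to 0.161. The transcript Gm20033 overlaps Klf3 exons on the opposite strand.

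The promoters of Klf2 and Klf3 are given as examples of factors that were higher in mLN in both housings. Klf4, Sox13 and Gata6 were also higher in both. The Klf4 window holds 4 GC boxes and 0 CACCC boxes, and that of Sox13 holds 0 of either. Klf2 is at chr8:72318812-72319111 and Klf3 at chr5:64803271-64803570, both on the plus strand, with GC and CACCC boxes in capitals and, in Klf2, also the MEF2 motif.
Klf2: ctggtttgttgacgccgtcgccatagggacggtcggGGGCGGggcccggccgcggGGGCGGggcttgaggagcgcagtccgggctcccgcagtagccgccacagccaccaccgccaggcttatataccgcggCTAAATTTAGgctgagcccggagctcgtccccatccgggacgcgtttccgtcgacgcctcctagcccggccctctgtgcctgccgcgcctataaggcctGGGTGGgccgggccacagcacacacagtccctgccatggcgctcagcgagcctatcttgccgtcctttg
Klf3: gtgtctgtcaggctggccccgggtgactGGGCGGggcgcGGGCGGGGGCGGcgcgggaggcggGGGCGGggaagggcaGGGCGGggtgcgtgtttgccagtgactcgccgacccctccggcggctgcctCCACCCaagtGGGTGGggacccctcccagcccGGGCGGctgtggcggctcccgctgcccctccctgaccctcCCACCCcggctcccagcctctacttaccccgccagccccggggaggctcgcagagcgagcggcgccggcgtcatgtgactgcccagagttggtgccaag

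Klf2 holds 2 GC boxes, 1 CACCC box and 1 MEF2 motif, which was in 0.557% of all windows and in 1 of the 22 windows of the factors. Klf3 holds 6 GC boxes and 3 CACCC boxes. MEF2 proteins are known to activate Klf2 in endothelium, and whether they act on it in SCs was not measured here.

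Klf6 and Klf7, closely related to each other, were both higher in pLN than in mLN of SPF mice. Klf6 stood at 133, 150.5 and 138 RPKM in mLN SPF, against 163, 259.6 and 185 RPKM in pLN SPF, a log2 change of -0.50 ± 0.15 (limma adjusted p = 0.0157). In GF mice Klf6 stood at 137, 157 and 144 RPKM in mLN, against 140.0, 163 and 152 RPKM in pLN, and did not pass (-0.05 ± 0.15, limma adjusted p = 0.816). The Klf6 difference did not pass without mLN SPF replicate 1 or pLN SPF replicate 2, with adjusted p up to 0.0653. Klf7 stood at 3.85, 3.16 and 4.31 RPKM in mLN SPF, against 5.83, 5.996 and 6.26 RPKM in pLN SPF, a change of -0.57 ± 0.13 (limma adjusted p = 0.00253) with no overlap. In GF mice Klf7 stood at 4.01, 3.57 and 3.77 RPKM in mLN, against 4.90, 3.70 and 5.26 RPKM in pLN, and did not pass (-0.22 ± 0.13, limma adjusted p = 0.199). The differences between the SPF and GF changes did not pass for either gene (limma adjusted p = 0.518 for Klf6 and 0.577 for Klf7). Opposite-strand transcripts overlap Klf7.

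Klf13 followed the direction of the FoxO genes. Klf13, a repressor that also activates the chemokine gene Ccl5 in T cells, stood at 8.66, 7.56 and 8.89 RPKM in mLN SPF, against 14.3, 12.6 and 12.03 RPKM in mLN GF. In pLN it stood at 7.66, 5.83 and 7.84 RPKM in SPF, against 12.4, 13.2 and 12.4 RPKM in GF mice. SPF and GF libraries did not overlap in either location, and Klf13 was lower in SPF by -0.58 ± 0.12 in mLN (limma adjusted p = 0.0128) and -0.76 ± 0.12 in pLN (limma adjusted p = 0.00144). Without mLN SPF replicate 2 or mLN GF replicate 1 the mLN change did not pass, with adjusted p up to 0.0655. Location changed it by 0.22 ± 0.12 in SPF and 0.03 ± 0.12 in GF mice, neither past the threshold.

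Klf11, a relative of the TGF-beta inducible Klf10, stood at 8.63, 9.51 and 8.90 RPKM in mLN SPF, against 8.73, 13.3 and 10.3 RPKM in pLN SPF. In GF mice Klf11 stood at 11.2, 9.67 and 9.67 RPKM in mLN, against 10.2, 11.2 and 10.6 RPKM in pLN. Klf10 ranged from 21.5 to 48.3 RPKM, with the highest value in pLN SPF replicate 2. Klf16 ranged from 1.35 to 2.20 RPKM. None of Klf10, Klf11 and Klf16 passed in any of the 4 comparisons. Klf10 had the widest intervals, with a housing change in mLN of 0.53 (95% interval 0.08 to 0.98). Klf5, which the study names, was absent from the deposited table.

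Genes known as targets of KLF2 or KLF4 in endothelium or T cells were read from a fixed list of 7, of which 6 were tested. In SPF mice 2 were called higher in mLN (3.98% of all genes) and 1 lower (6.41%), and GF mice gave the same counts (4.57% and 6.88%). Medians were 0.59 in SPF and 0.87 in GF mice, beside 0.09 and 0.00 over all genes. Plat, which encodes tissue plasminogen activator, was higher by 1.33 ± 0.16 in SPF and 1.85 ± 0.16 in GF mice (limma adjusted p = 9.87e-06 and 2.63e-07). Tek, an angiopoietin receptor that is also among the blood endothelial markers above, was higher by 1.75 ± 0.18 and 1.91 ± 0.18 (limma adjusted p = 1.45e-06 and 5.22e-07). S1pr1, the sphingosine-1-phosphate receptor that KLF2 activates in T cells, was lower in mLN, by -1.51 ± 0.15 in SPF and -1.63 ± 0.15 in GF mice (limma adjusted p = 1.05e-06 and 4.27e-07). For housing 1 was called, Cdkn1a, an inhibitor of the cell cycle, lower in mLN SPF than in mLN GF by -1.64 ± 0.18 (limma adjusted p = 6.75e-05). Of all genes 0.482% were called lower in that comparison. The link of these genes to Klf2 or Klf4 was not tested. Of 4 tested Sp factors, 0 were called in any comparison, and at the adjusted p alone Sp3 was higher (0.69 ± 0.19) and Sp4 lower (-0.57 ± 0.18) in mLN of SPF mice, and Sp2 higher (0.43 ± 0.13) in mLN of GF mice.

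Several KLF genes are induced rapidly by stress, and tissue digestion preceded the sort, so a list of 24 immediate early and heat shock genes, none of them a KLF, was read beside them. All 21 in the table were tested. In SPF mice 0 were called higher in mLN (3.98% of all genes) and 6 lower (6.41%). At the adjusted p alone 0 were higher (19.7%) and 17 lower (13.8%), with a median of -0.74 beside 0.09 over all genes. In GF mice 0 were called higher (4.57% of all genes) and 4 lower (6.88%). At the adjusted p alone 1 was higher (17.1%) and 12 lower (18.4%), with a median of -0.49. The list summed to 8680 to 9425 RPKM in mLN SPF, against 12923 to 14450 RPKM in pLN SPF. Hspa1a, a heat shock gene, had the largest change of the list in SPF mice, at 37.8 ± 6.08 RPKM in mLN SPF and 146 ± 73.4 RPKM in pLN SPF. In SPF mice the list ran with Klf6 and against Klf2 and Klf4, while in GF mice Klf6 did not pass (-0.05 ± 0.15). For housing 0 of the 21 were called in either location (0.717% of all genes in mLN and 1.04% in pLN). At the adjusted p alone limma gave 1 higher (2.48%) and 1 lower (2.06%) in mLN SPF, and 4 higher (4.02%) and 0 lower (6.74%) in pLN SPF. The list's part in the KLF values was not tested.

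Gata6 was the only GATA gene with reads to test. Gata6 acts in visceral mesoderm and endoderm, and in mouse it also marks peritoneal macrophages. It stood at 17.1, 15.0 and 15.4 RPKM in mLN SPF, against 11.04, 13.0 and 10.7 RPKM in pLN SPF, a log2 change of 0.43 ± 0.13 (limma adjusted p = 0.0152). Gata6 in GF mice stood at 14.5, 13.4 and 11.7 RPKM in mLN, against 9.22, 7.32 and 7.35 RPKM in pLN, a change of 0.66 ± 0.13 (limma adjusted p = 0.000535). All mLN libraries lay above all pLN libraries of the same housing. Gata6 was higher in pLN SPF than in pLN GF by 0.49 ± 0.13 (limma adjusted p = 0.024), and its change in mLN was 0.25 ± 0.13 (0.346). The SPF location difference did not pass without mLN SPF replicate 1 or pLN SPF replicate 3, with adjusted p up to 0.0699. The pLN housing difference did not pass without pLN SPF replicate 2 or pLN GF replicate 2 or 3, with adjusted p up to 0.103. A transcript on the opposite strand overlaps its exons.

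Gata4, a factor of heart and endoderm, was at 0.0298, 0 and 0 RPKM in mLN SPF, against 0, 0.0553 and 0 RPKM in pLN SPF. In GF mice Gata4 was at 0.0297, 0.0336 and 0.0264 RPKM in mLN, against 0.0208, 0.0187 and 0.050 RPKM in pLN. Gata2, a factor of blood progenitors and endothelium, was at 0.0624, 0 and 0 RPKM in mLN SPF, against 0.0291, 0.0290 and 0 RPKM in pLN SPF. In GF mice Gata2 was at 0.0622, 0 and 0 RPKM in mLN, against 0, 0.0197 and 0 RPKM in pLN. Both genes rest on at most 2 reads per library, and no difference was detectable at this depth. Of 5 tested partners of GATA factors, 1 was called in both location comparisons (10.4% of all genes in SPF and 11.4% in GF mice). This was Lmo2, a bridging protein of GATA complexes, at 40.4 ± 1.42 RPKM in mLN SPF and 12.2 ± 0.380 RPKM in pLN SPF (log2 change 1.65 ± 0.13, limma adjusted p = 5.33e-08). Lmo2 averaged 38.0 ± 5.20 RPKM in mLN GF and 6.42 ± 1.12 RPKM in pLN GF (log2 change 2.39 ± 0.13, limma adjusted p = 1.59e-09). Zfpm2, the cofactor FOG2, was higher in mLN by 0.60 ± 0.17 and 0.90 ± 0.17 (limma adjusted p = 0.011 and 0.000485), and Lmo4, another LIM-only bridging protein, was lower in mLN by -0.76 ± 0.19 and -0.83 ± 0.19 (limma adjusted p = 0.00582 and 0.00311).

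The housing comparison asked which factors differ between SPF and GF mice. In mLN 1 of 26 was called higher in SPF (background 0.236%) and 0 lower (background 0.482%), where limma gave 4 lower at an unadjusted p below 0.05 and voom called 1, Foxo3. At the adjusted p alone, 2 were higher, Sox9 and Klf3 (background 2.48%), and 2 lower, Foxo3 and Klf13 (background 2.06%). In pLN 0 were called (background 1.04%), with 6 higher and 7 lower at an unadjusted p below 0.05 by limma and 1 called by voom, again Foxo3. At the adjusted p alone, 2 were higher in pLN SPF, Klf3 and Gata6 (background 4.02%), and 4 lower, Foxo3, Foxo1, Klf13 and Foxk2 (background 6.74%). Foxk2, a forkhead repressor of autophagy genes, averaged 3.96 ± 0.776 RPKM in pLN SPF and 5.71 ± 0.769 RPKM in pLN GF (SD, n = 3 each), a log2 change of -0.44 ± 0.13 (limma adjusted p = 0.0397) that was lost in 10 of 21 alternatives. Among them were leaving out mLN SPF replicate 1 or 3, mLN GF replicate 1 or 3, pLN SPF replicate 1 or 3, or pLN GF replicate 1 or 2, with adjusted p up to 0.13. Several marker sums also differed with housing without overlap. In mLN the CD34+ SC sum was 5587 to 6069 RPKM in SPF, against 4731 to 5450 RPKM in GF mice. Of its 11 genes only 1, Aldh1a2, passed the adjusted p. Has1 and Pi16 averaged lower in SPF, at 165 and 461 RPKM in mLN SPF and 215 and 535 RPKM in mLN GF, while the others were level or higher. The blood endothelial, Schwann cell and immediate early sums were also higher in mLN SPF, the Schwann cell sum being mostly Pmp22. The mesothelial sum was lower in SPF, but its 2 genes moved in opposite directions and neither passed the adjusted p. Wt1 averaged 7.31 RPKM in mLN SPF and 10.4 RPKM in mLN GF, and Cldn15 averaged 5.29 and 3.28 RPKM. In pLN the FRC sum was 5381 to 7219 RPKM in SPF, against 7451 to 9564 RPKM in GF mice. It was made up mostly of Ccl21a and Ccl19, and neither passed (limma adjusted p = 0.176 and 0.163). The 1 FRC gene called, Inmt, ran the other way, at 752 RPKM in pLN SPF and 247 RPKM in pLN GF (limma adjusted p = 0.0015). At the adjusted p alone Grem1 was lower in SPF (limma adjusted p = 0.0134). The general SC, mesothelial and immediate early sums were higher in pLN SPF. In pLN too Cldn15 was higher and Wt1 lower in SPF, neither past the adjusted p. Their part in the housing differences was not tested.

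**Figure D4:**
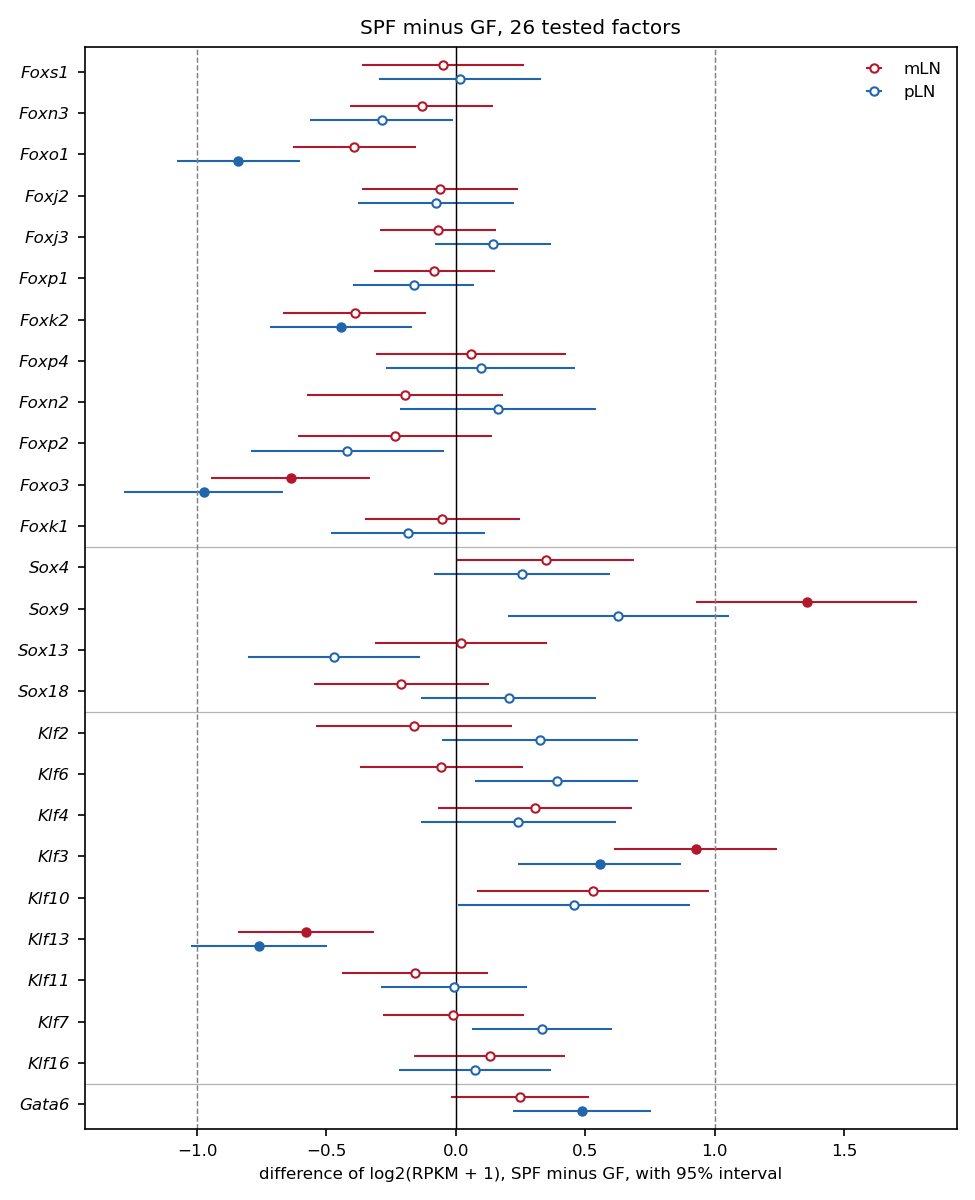
Log2 change of SPF minus GF (horizontal axis, log2(RPKM + 1) scale) for the 26 tested factors, in mLN (red) and pLN (blue), with 95% intervals. Filled points passed an adjusted p of 0.05, dashed lines mark 2-fold, and Sox9 in mLN is furthest to the right at 1.36 while Foxo3 in pLN is furthest to the left at -0.98.

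Whether the housing difference itself differed between mLN and pLN was tested by the interaction of location and housing. It was called for 0 of the 26 factors (background 0.215%), and 0 passed the adjusted p alone (background 0.277%), and voom also called 0. At an unadjusted p below 0.05 limma gave 4, Foxo1, Sox9, Sox13 and Klf6, and the lowest adjusted p was 0.366, for Foxo1, at 0.45 ± 0.16. The intervals are wide, since that of Sox9 runs from 0.12 to 1.33 and that of Klf2 from -1.02 to 0.05.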

How the data were processed

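The deposited table holds RPKM values that the authors computed per library from raw counts, after aligning reads with TopHat2 1.2.0 to GRCm38 (mm10) and counting with HTSeq 0.12.4. SMART-Seq v4 libraries keep no strand. The table's 8 columns of the authors' own comparisons (log2 fold changes and adjusted p-values) were not used. The source label calls the pLN mesenteric, and titles were followed. Symbols that spreadsheet software had turned into dates (18) are not named, and 6 rows whose values cannot come from 1 exon length were left out.

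Genes with at least 1 RPKM in 3 libraries (9758) entered a linear model (limma 3.58.1, R 4.3.3) of log2(RPKM + 1), all 12 libraries in 4 group means, without trend or robust options, and the fit was tested on simulated data. Whole reads were recovered for 99.94% of rows (relative tolerance 1e-08) and served for depth and the voom alternative. Genes were named if called in any comparison, among the 3 most abundant of their family, or named by the study. Factors past the adjusted p under 2-fold are given by counts and the 2 largest changes per family and direction, and list genes if called. Foxp1 and list genes under 2-fold were named after their values were seen. The factors and gene lists were chosen with earlier results of these data known. Same-numbered mLN and pLN libraries deviated together in SPF mice (correlations 0.26, 0.46 and 0.18 over genes, limit 0.1) but not in all pairs of GF mice (0.23, 0.22 and 0.08), although differently numbered SPF libraries reached 0.30 (mLN 1 with pLN 3) and 0.21 (mLN 3 with pLN 1). A replicate block within each housing, added after this check, was therefore tried, and the titles are the only source of the pairing. The result of 1 gene list, of FoxO regulators, is not reported here.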

Additional observations from a re-analysis of the deposited data

How the results depend on the processing

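The numbers of factors called were recomputed under other pseudocounts, filters, scalings and variance models, without each library in turn, and by voom on recovered reads. In SPF mice the location count of 5 lay between 4 and 6 without single libraries, and in GF mice the count of 4 lay between 4 and 5. All location counts in this paragraph include Sox18, Foxp2 or both, which entered the tests through pLN. The housing count in mLN, 1, lay between 1 and 2 without single libraries and was 2 with a pseudocount of 0.1 and with voom. The count in pLN, 0, lay between 0 and 1 and was 1 with a pseudocount of 0.1, with 0.5 and with voom. The added factor in these 5 alternatives was Foxo3. The interaction count was 0 throughout. The adjusted p alone gave 15 and 14 for location in SPF and GF mice and 4 and 6 for housing in mLN and pLN. With the replicate block, paired by number over all libraries or within each housing, the location counts were again 5 and 4 in SPF and GF mice, and over all libraries the housing counts 1 and 0, with the same factors called. Of 39 single changes past the adjusted p, 0 reversed and 25 passed in every alternative. Both the 39 and the 25 include the location changes of Sox18 and Foxp2, so they partly reflect factors that entered through the location where they were high. The cause of the other losses was not tested. Factors under 1 RPKM are limited by depth.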
